A study of Mus musculus with 10 samples.

Results

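The SLC25 genes encode the carriers of the inner mitochondrial membrane, and 47 of the 24421 rows of the deposited count table bore an SLC25 symbol (Slc25a followed by a number). They were taken by symbol alone, whatever their values. RNA was taken from the calf (gastrocnemius with plantaris) of 10 C57BL/6 mice, all male and 12 weeks old. All mice were fasted for about 16 h. Then 5 received an intraperitoneal injection of saline (animals 32, 34, 36, 38 and 39) and 5 received ethanol at 3 g/kg (animals 51, 57, 59, 60 and 62), and muscle was taken 1 h later, with the mice still fasted and under isoflurane. Both groups therefore share the fast and the anaesthetic, and no fed or untreated mouse was part of the comparison. Each library is 1 animal, and whole muscle holds fibres together with vessel, connective tissue, fat and blood cells. In such bulk samples fewer cells of a type and less RNA per cell cannot be told apart.

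SLC25 carriers are related membrane proteins that move nucleotides, phosphate, carboxylic acids, amino acids, acylcarnitines, cofactors and metal ions between the cytosol and the mitochondrial matrix, most of them by exchanging one solute for another. In skeletal muscle the ADP/ATP carrier and the phosphate carrier feed ATP synthase and deliver its product to the contractile apparatus. The aspartate/glutamate and oxoglutarate/malate carriers form the malate-aspartate shuttle, which brings the reducing equivalents of cytosolic NADH into mitochondria, and the carnitine/acylcarnitine carrier brings in the fatty acids that fasted muscle burns. Oxidation of ethanol and of its acetaldehyde product raises NADH, chiefly in liver, and these carriers stand where cytosolic redox state and mitochondria meet.

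The 5 saline libraries held 32038927 to 42654771 counts and the 5 ethanol libraries 20317959 to 31252438, so depth and treatment moved together with no overlap. The 10 skeletal muscle markers, among them *Acta1*, *Ckm* and *Myh4*, were all tested and together held 128525 to 155396 CPM in saline and 133559 to 164048 CPM in ethanol, with none at 0. By edgeR's quasi-likelihood test 0 of 13180 tested genes passed a false discovery rate (FDR) of 0.05, 1599 had an unadjusted p under 0.05, DESeq2 called 55 genes and limma-voom 0. Levels below are in CPM, counts per 1000000 of the TMM-scaled library total, and group means carry the SD over 5 libraries. Fold changes are log2, ethanol minus saline, with their standard error (SE). Saline 36 and ethanol 60 stood apart from their groups for several genes, and some values are also given without either or both of them. Values listed by library follow the order of the animal numbers given above.

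The carriers took 0.701 ± 0.0633% of all counts after saline and 0.723 ± 0.0657% after ethanol (SD, n = 5 each), with overlapping ranges of 0.627 to 0.782% and 0.655 to 0.804%. Their levels were very uneven. *Slc25a4*, encoding the muscle and heart ADP/ATP carrier ANT1, held 59.7 ± 1.86% of all carrier counts in saline and 60.5 ± 1.35% in ethanol, and together with the phosphate carrier gene *Slc25a3* it held 74.95 ± 1.49% and 75.5 ± 1.32%. Per length of exon, the order of the mean level over the 10 libraries was *Slc25a4* (1823 CPM per kb), *Slc25a3* (193), the oxoglutarate carrier gene *Slc25a11* (129.7), the aspartate/glutamate carrier gene *Slc25a12* (60.1), *Slc25a34* (36.3), whose substrate is not settled, and the carnitine/acylcarnitine carrier gene *Slc25a20* (35.6). Each of the first 4 stood above the next with no overlap between libraries, whereas *Slc25a34*, *Slc25a20* and the second ADP/ATP carrier gene *Slc25a5* (33.9 CPM per kb) overlapped. At the other end of the tested genes were *Slc25a2*, *Slc25a13* and *Slc25a53*, at 0.276, 0.272 and 0.0636 CPM per kb. The length is the union of all annotated exons of a gene, which can exceed that of its transcripts, so values and ratios per length depend on the annotation. In CPM alone *Slc25a4* averaged 4290 and *Slc25a3* 1073, and *Slc25a12* (441) stood above *Slc25a11* (275).

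**Figure D1:**
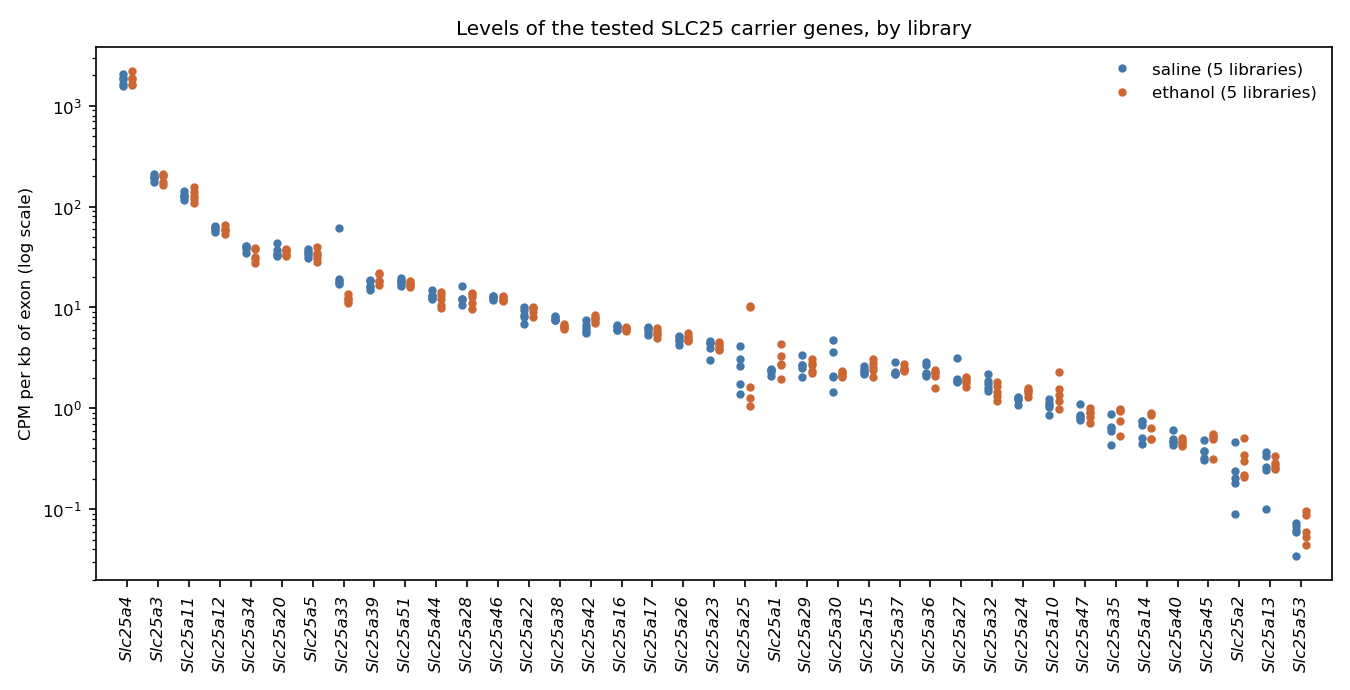
CPM per kb of exon (log scale) of 39 tested SLC25 genes, ordered by their mean level, with 1 point for each of 5 saline (blue) and 5 ethanol (orange) libraries. Levels run from 1823 CPM per kb for Slc25a4 to 0.0636 for Slc25a53, and the groups overlap for all of these except Slc25a33 and Slc25a38.

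The comparison asked which carrier transcripts differed 1 h after ethanol. Of the 47 genes, 40 had enough counts to be tested, and 0 of these passed FDR 0.05 by edgeR or limma-voom, against 0% of all genes by edgeR. DESeq2 called 0 of the 37 that it gave an adjusted p, against 0.468% of all genes. Within 0.2 log2 units of 0 lay 24 of the 40 fold changes, against 9468 of all 13180 tested genes, which is a larger share. The median was 0.0091 (0.00096 over all tested genes), and 19 were negative and 21 positive (49.8% of all tested genes were negative). An unadjusted p under 0.05 was reached by 6 of 40 (15%), against 12.1% of all tested genes, a share near the background. These were *Slc25a38*, *Slc25a33* and *Slc25a34* at lower levels in ethanol (3 of 40, against 5.91% of all genes) and *Slc25a42*, *Slc25a24* and *Slc25a10* at higher ones (3 of 40, against 6.22%). Scaled by total count alone the split was 2 lower and 5 higher, where 11.1% of all genes had such a p, 39.7% of all genes were negative and the median of all genes was 0.040. The groups did not overlap for *Slc25a38* and *Slc25a33*, both lower (2 of 40, against 0.819% of all genes), and for 0 of 40 in the other direction (against 1.36%). The 95% intervals, which are not adjusted for the number of genes, reached a median of 0.23 log2 units to each side. At this depth and number of mice, differences smaller than this were mostly not detectable. Larger ones could also go without a call at FDR 0.05, as did *Slc25a38* at -0.26 and *Slc25a33* at -1.13.

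**Figure D2:**
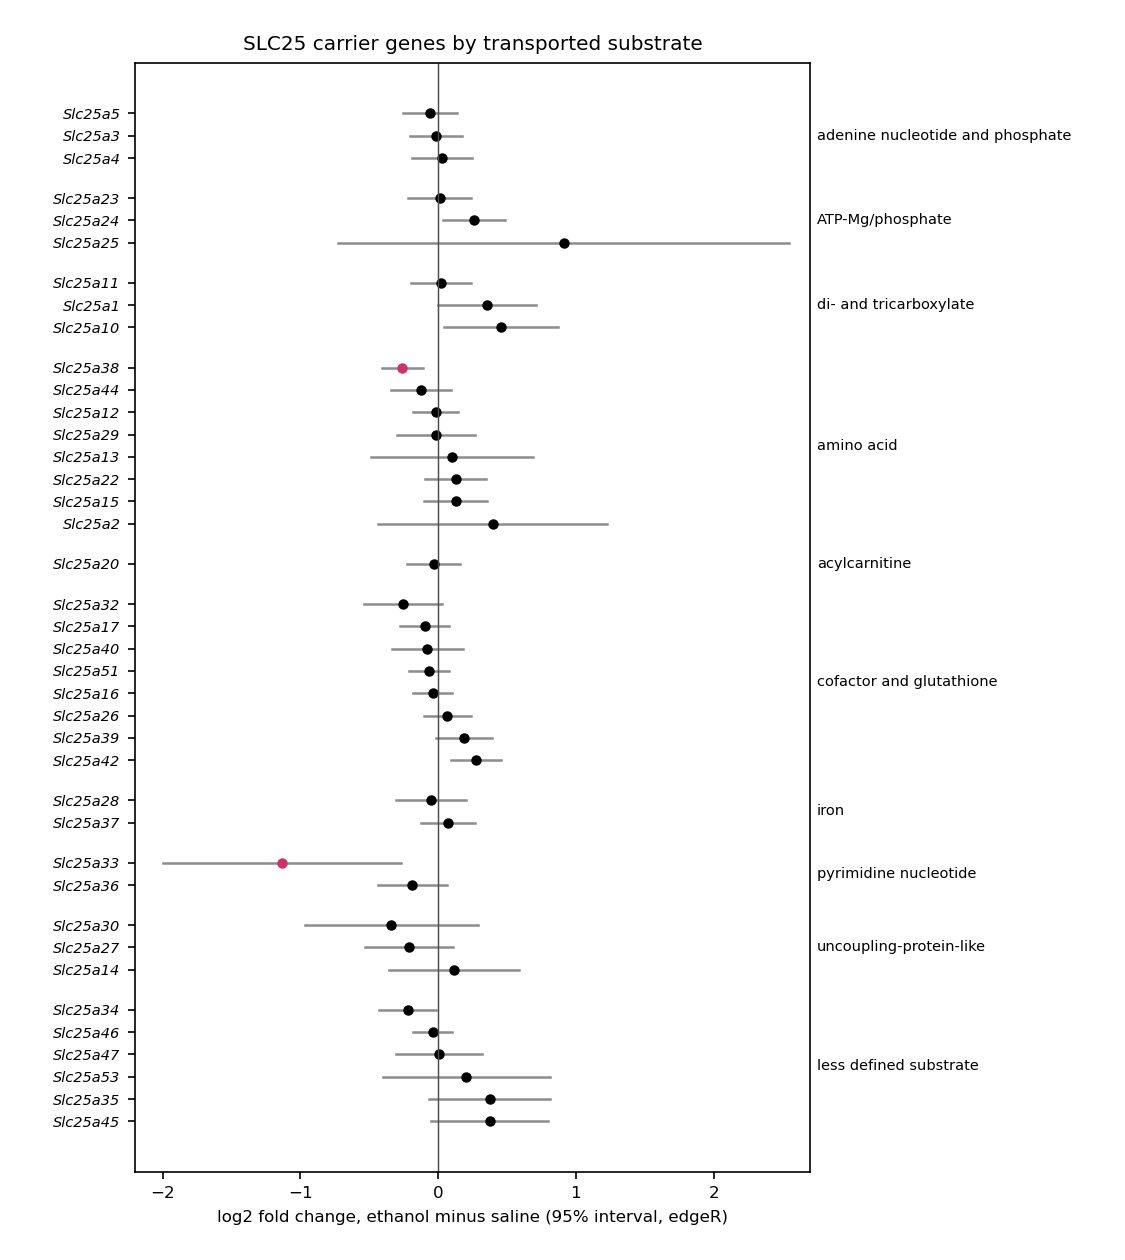
Log2 fold change, ethanol minus saline, of 39 tested SLC25 genes with 95% intervals from edgeR's quasi-likelihood fit, grouped by substrate. Red points are Slc25a38 and Slc25a33, whose groups did not overlap, and the interval of 33 of these 39 genes includes 0.

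**Figure D3:**
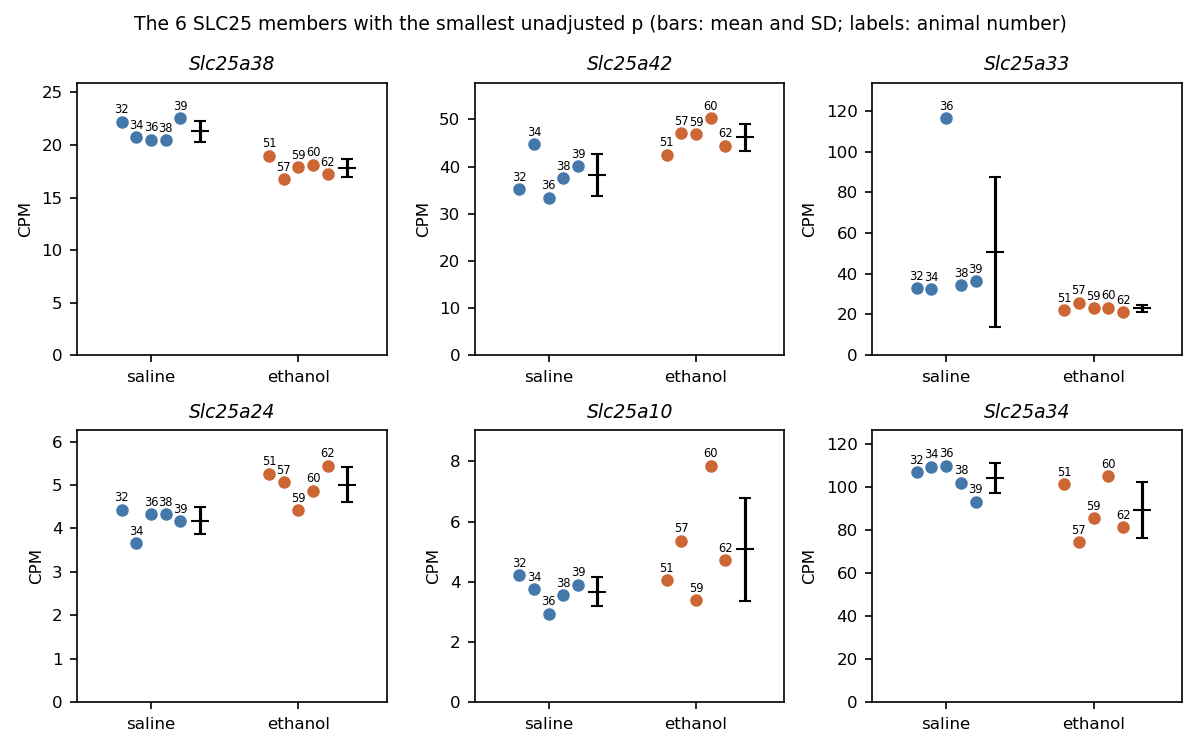
CPM of the 6 SLC25 genes with the smallest unadjusted p in the 5 saline (blue) and 5 ethanol (orange) libraries, labelled with the animal number, with the group mean and SD as a bar. The groups are apart for Slc25a38 and Slc25a33 and overlap for the other 4 genes, and saline 36 lifts the saline mean of Slc25a33.

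For the carriers of energy phosphates no difference beyond the error was found. *Slc25a4* (GRCm38 chromosome 8, 46206797 to 46211284) stood at 4396, 4833, 3912, 3709 and 4384 CPM in the saline libraries. After ethanol *Slc25a4* stood at 3884, 4331, 5182, 3785 and 4483 CPM. The groups overlapped throughout, with ethanol 59 highest and saline 38 lowest, and the log2 fold change was 0.029 ± 0.10 (SE, 95% interval from -0.19 to 0.25, FDR = 0.931). The sign changed without saline 36, saline 38 or ethanol 59 (-0.049 in the last case) and with 1 surrogate variable (-0.11). *Slc25a3*, the phosphate carrier gene (chromosome 10, 91116574 to 91124059), stood at 1079, 1167, 1089, 973 and 1090.01 CPM in the saline libraries. After ethanol *Slc25a3* stood at 977, 1126, 1182, 912 and 1138 CPM, a difference of -0.017 ± 0.088 on the log2 scale (SE, FDR = 0.954). Here too ethanol 59 held the highest value, with ethanol 60 lowest, and the sign changed in some alternatives. *Slc25a5*, encoding ANT2, the ADP/ATP carrier of proliferating and many non-muscle cells, was at 51.3, 54.2, 62.96, 57.4 and 59.2 CPM in the saline libraries. After ethanol *Slc25a5* stood at 51.02, 64.98, 54.1, 46.4 and 56.6 CPM (-0.060 ± 0.091, SE, FDR = 0.825). Per length, the *Slc25a4* level was 52.6 ± 8.49 times that of *Slc25a5* after saline and 55.9 ± 7.36 times after ethanol (SD, n = 5 each), between 43.5 and 62.4 and between 46.6 and 67.0 across libraries. The testis carrier gene *Slc25a31* (ANT4) had 1 count in saline 36, 3 in ethanol 60 and 0 in the other libraries.

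The ATP-Mg/phosphate carriers adjust the adenine nucleotide pool of the matrix and, apart from the short form *Slc25a41*, are opened by cytosolic calcium. They held the most variable member. *Slc25a25* (chromosome 2, 32414487 to 32451445), whose loss in mice lowers exercise endurance, stood at 10.9, 32.5, 13.6, 20.5 and 24.4 CPM in the saline libraries. After ethanol *Slc25a25* stood at 12.8, 81.03, 78.8, 10.03 and 8.31 CPM. Ethanol 57 and ethanol 59 stood far above all other libraries, while ethanol 60 and ethanol 62 lay below every saline library and ethanol 51 between the lowest saline libraries. Its coefficient of variation was 99.8% in ethanol, the highest of the 40 genes, and 42.5% in saline. The log2 fold change of 0.91 ± 0.72 (SE, 95% interval from -0.73 to 2.55, FDR = 0.635) rested on those libraries: it was 0.43 without ethanol 57, 0.46 without ethanol 59, and -0.97 without both (FDR = 0.651), a fit chosen after the values were seen.

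RefSeq (GRCm38.p6) gives *Slc25a25* several start sites, and 1 of its 3 promoter windows (250 bases before to 50 after a start) holds the palindromic cAMP response element TGACGTCA, the letters bound by CREB. The gene was chosen because it differed most between mice, and this window of the 3 is shown because it holds the element, in capitals. The element occurs in 1.79% of the 32851 mouse promoter windows of that length, on either strand, and in 2 of the 46 windows found for 36 carrier genes, the other being that of *Slc25a36*. The match describes letters, and binding was not measured.
Slc25a25 window, chr2:32424017-32424316, minus strand: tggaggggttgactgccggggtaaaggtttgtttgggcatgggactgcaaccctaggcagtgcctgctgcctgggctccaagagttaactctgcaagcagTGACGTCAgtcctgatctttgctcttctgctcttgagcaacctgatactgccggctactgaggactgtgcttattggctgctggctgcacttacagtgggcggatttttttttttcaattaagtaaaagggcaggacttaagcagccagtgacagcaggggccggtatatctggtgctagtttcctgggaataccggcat

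The other carriers of this group varied less. *Slc25a24* (chromosome 3, 109123149 to 109168457) stood at 4.43, 3.67, 4.32, 4.32 and 4.16 CPM in the saline libraries. After ethanol *Slc25a24* stood at 5.26, 5.06, 4.42, 4.87 and 5.44 CPM, and all 5 ethanol libraries were above the saline median, with ethanol 59 just under the highest saline library. Its log2 fold change was 0.26 ± 0.11 (SE, FDR = 0.372). Of the 8 tested fibroblast markers 7 had positive fold changes (median 0.20), with summed levels of 894 to 1138 CPM in saline and 904 to 1233 CPM in ethanol and none at 0. Ethanol 59 was the lowest ethanol library of that sum too, but ethanol 62, the highest library of *Slc25a24*, was the next lowest at 1019 CPM. By edgeR 2 of the 8 had an unadjusted p under 0.05, both higher in ethanol (6.22% of all tested genes were). These were *Pi16* (0.48 ± 0.13, log2 ± SE, FDR = 0.287) and *Col3a1* (0.46 ± 0.14, FDR = 0.287). *Dcn*, the only marker with a negative fold change, averaged 571 CPM in saline and 561 in ethanol. Ethanol 59 was not the lowest ethanol library for *Lum*, *Col1a1* or *Col3a1*. The part of fibroblasts in the *Slc25a24* value was not tested. *Slc25a23* was at 23.3, 24.7, 16.1, 21.2 and 23.7 CPM in the saline libraries. After ethanol *Slc25a23* stood at 21.9, 23.2, 23.9, 20.7 and 20.1 CPM (0.011 ± 0.11, SE, FDR = 0.975), with saline 36 lowest. *Slc25a41*, a testis and liver form, had at most 3 counts in a library.

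**Figure D4:**
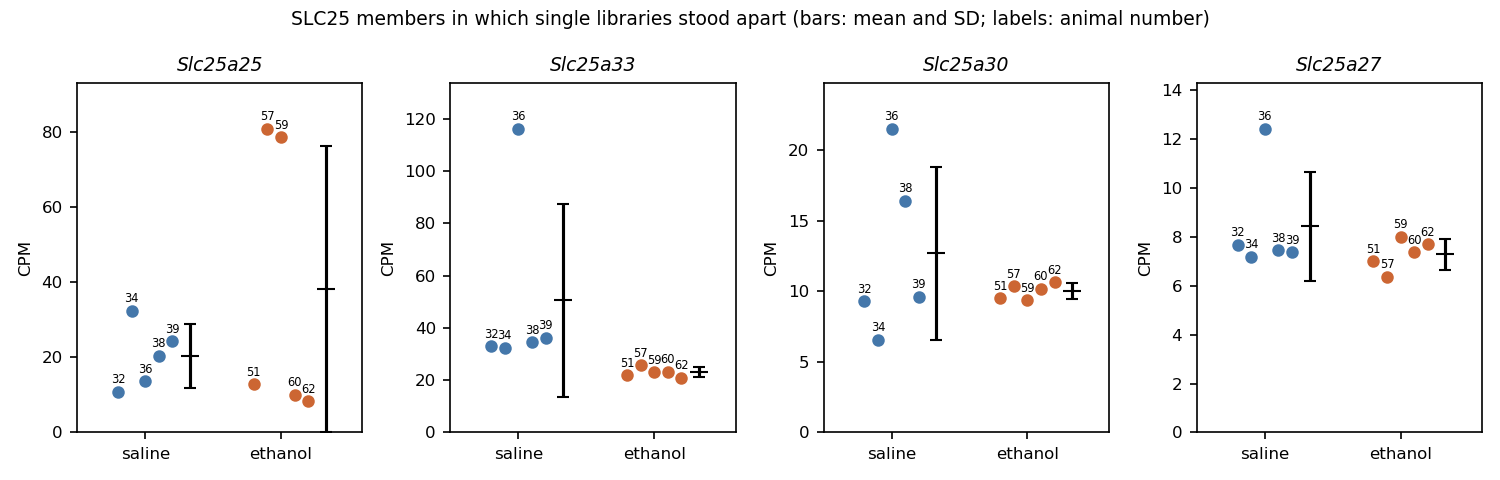
CPM of Slc25a25, Slc25a33, Slc25a30 and Slc25a27 in the 5 saline (blue) and 5 ethanol (orange) libraries, labelled with the animal number, with the group mean and SD as a bar. Ethanol 57 and 59 stand apart for Slc25a25 at 81.03 and 78.8 CPM, and saline 36 for Slc25a33 and Slc25a27 at 116 and 12.4 CPM. For Slc25a30 saline 36 and saline 38 are highest, at 21.5 and 16.4 CPM.

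Among the carriers of di- and tricarboxylates, the member of the malate-aspartate shuttle did not differ beyond its error, while the low-level citrate and dicarboxylate carriers, which supply carbon for lipid synthesis in fat and liver, were at higher mean levels in ethanol. *Slc25a11* (chromosome 11, 70644196 to 70647479) stood at 279, 305, 266, 246 and 268 CPM in the saline libraries. After ethanol *Slc25a11* stood at 251, 299, 335, 231 and 268 CPM, a difference of 0.021 ± 0.10 on the log2 scale (SE, FDR = 0.9503) with overlapping groups, and 8.9% of its exon bases are shared with *Rnf167*. *Slc25a10*, the dicarboxylate carrier gene (chromosome 11, 120491840 to 120499187), stood at 4.23, 3.75, 2.94, 3.56 and 3.91 CPM in the saline libraries. After ethanol *Slc25a10* stood at 4.05, 5.36, 3.401, 7.85 and 4.72 CPM (0.45 ± 0.19, SE, FDR = 0.383). *Slc25a1*, the citrate carrier gene (chromosome 16, 17925223 to 17928219), stood at 5.34, 4.95, 4.55, 5.15 and 5.22 CPM in the saline libraries. After ethanol *Slc25a1* stood at 5.99, 7.07, 4.18, 9.37 and 5.81 CPM (0.36 ± 0.17, SE, FDR = 0.414). Ethanol 60 held the highest value of both and ethanol 57 the next, whereas ethanol 59 lay within or below the saline range.

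Of the 11 adipocyte markers 9 were also highest in ethanol 60, and *Lpl* and *Pnpla2*, which fibres express too and which make up most of the summed level, were highest in saline 36. *Adipoq*, the adiponectin gene, stood at 57.5 CPM in ethanol 60 and 24.9 in ethanol 57, against 13.1 in ethanol 59 and 9.34 to 18.8 in saline. Ethanol 59 was above every saline library for *Lipe* (45.4 CPM, against 30.3 to 36.9) and *Pck1* (29.0, against 10.9 to 27.6). It was not for the other adipocyte markers. An unadjusted p under 0.05 was reached by 4 of the 11, all higher in ethanol (6.22% of all tested genes were), and DESeq2 called *Lipe* (adjusted p = 0.0496). Of the 11 tested adipocyte genes, 9 had positive fold changes, with a median of 0.83, and the list summed to 2795 to 3600.2 CPM in saline and 2895 to 4004 CPM in ethanol, with none at 0. Without ethanol 60 the log2 fold change was 0.25 for *Slc25a10* and 0.19 for *Slc25a1*, and without saline 36 as well 0.17 and 0.15. The part of fat cells in these values was not tested. The 2-oxoadipate carrier gene *Slc25a21* had at most 4 counts in a library.

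Amino acid carriers included the member with the smallest p of the family. *Slc25a38* (chromosome 9, 120110374 to 120124504), the mitochondrial glycine carrier, which supplies glycine for the first step of haem synthesis, stood at 22.2, 20.8, 20.5, 20.4 and 22.5 CPM in the saline libraries. After ethanol *Slc25a38* stood at 18.99, 16.7, 17.9, 18.1 and 17.2 CPM. Every ethanol library was below every saline library, with a gap between saline 38 at 20.4 and ethanol 51 at 18.99 CPM, and the SD within the groups was 4.71% and 4.91% of the mean. The log2 fold change was -0.26 ± 0.069 (SE, 95% interval from -0.41 to -0.11). It did not pass FDR 0.05 (edgeR FDR = 0.287, DESeq2 adjusted p = 0.05899), and ranked 90th of 13180 genes by p. Over 21 other ways of processing or of leaving out libraries the value stayed between -0.32 and -0.21, with an adjusted p from 0.059 to 0.55. Of the erythroid markers, *Alas2*, the enzyme gene of that first step in red cell precursors, was at 20.5, 9.28, 50.3, 7.97 and 13.1 CPM in saline and 13.9, 15.01, 11.2, 19.5 and 18.6 in ethanol, with saline 36 far above the rest, and the 4 globin rows of the list were listed at 0 in every library. How reads over duplicated genes were counted is not given in the sources used here. The globin rows are therefore not read as levels. The 7 erythroid rows, almost all of it *Alas2*, summed to 8.19 to 51.8 CPM in saline and 11.4 to 20.6 CPM in ethanol. Their part in the *Slc25a38* value was not tested.

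The aspartate/glutamate carriers differed widely in level, and neither differed between groups beyond its error. *Slc25a12* (chromosome 2, 71271063 to 71367749), the form of muscle and brain known as aralar, stood at 469.5, 461, 448, 427 and 415 CPM in the saline libraries. After ethanol *Slc25a12* stood at 432, 432, 487, 397 and 444 CPM (-0.019 ± 0.075, SE, FDR = 0.9396). *Slc25a13*, the liver form citrin, had 15 to 51 counts in a library and stood at 0.932, 1.396, 0.384, 1.29 and 1.01 CPM in the saline libraries. After ethanol *Slc25a13* stood at 1.08, 1.04, 0.977, 0.946 and 1.27 CPM (0.10 ± 0.28, SE, FDR = 0.914, and -0.12 without saline 36), with saline 36 lowest. Per length the *Slc25a12* level was 171 to 604 times that of *Slc25a13* across the 10 libraries, the highest ratio being that of saline 36 and the next 261.

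None of the other tested amino acid carriers had an unadjusted p under 0.05 by edgeR. *Slc25a44*, the branched-chain amino acid carrier gene, averaged 46.9 ± 3.94 CPM after saline and 43.1 ± 6.71 CPM after ethanol (-0.13 ± 0.10, log2 ± SE), the glutamate carrier gene *Slc25a22* averaged 51.3 ± 7.56 CPM after saline and 56.01 ± 5.24 CPM after ethanol (0.13 ± 0.10) and the ornithine carrier gene *Slc25a15* averaged 13.3 ± 1.04 CPM after saline and 14.6 ± 2.27 CPM after ethanol (0.13 ± 0.11). The basic amino acid carrier gene *Slc25a29* averaged 6.95 ± 1.21 CPM after saline and 6.85 ± 0.887 CPM after ethanol (-0.015 ± 0.13), and *Slc25a2*, a second ornithine carrier gene, averaged 0.324 ± 0.192 CPM after saline and 0.432 ± 0.163 CPM after ethanol on 4 to 25 counts (0.40 ± 0.39). With a library left out in turn, the *Slc25a2* value ran from 0.17 without ethanol 62 to 0.79 without saline 36. It was 0.89 without saline 36 and ethanol 60. The FDR values of these 5 genes were between 0.635 and 0.974. The glutamate carrier gene *Slc25a18* had at most 6 counts. Of the 8 tested genes of this group 4 were negative and 4 positive, with a median log2 fold change of 0.043.

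*Slc25a20* (chromosome 9, 108662088 to 108684641), the carnitine/acylcarnitine carrier through which long-chain fatty acids enter the matrix, stood at 181, 209.5, 163, 156 and 161 CPM in the saline libraries. After ethanol *Slc25a20* stood at 155, 162, 171, 183 and 181 CPM. The groups overlapped, with saline 34 highest, and the log2 fold change was -0.032 ± 0.091 (SE, 95% interval from -0.23 to 0.16, FDR = 0.916). Of the 5 tested enzymes of the same shuttle none had an unadjusted p under 0.05. They include the muscle form *Cpt1b*, at 0.525 ± 0.161 CPM in saline and 0.426 ± 0.051 in ethanol, a row not read as an expression level. The liver form *Cpt1a* was at 15.4 ± 2.02 and 17.6 ± 1.85 CPM in saline and ethanol (0.19 ± 0.10, log2 ± SE), *Cpt2* at 93.5 ± 3.69 and 105 ± 14.7 CPM (0.17 ± 0.091) and *Crat* at 604 ± 25.4 and 602 ± 31.1 CPM (-0.0044 ± 0.069).

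Cofactor carriers had fold changes of both signs, with 5 of 9 negative and a median log2 fold change of -0.039. *Slc25a42* (chromosome 8, 70184340 to 70212305), which imports coenzyme A into the matrix, stood at 35.2, 44.7, 33.4, 37.5 and 40.1 CPM in the saline libraries. After ethanol *Slc25a42* stood at 42.5, 47.02, 46.8, 50.2 and 44.4 CPM. All 5 ethanol libraries lay above the saline median and 3 above every saline library, saline 34 being the saline library that overlapped. The log2 fold change was 0.27 ± 0.085 (SE, 95% interval from 0.092 to 0.46, FDR = 0.303, DESeq2 adjusted p = 0.1797), and 0.19 without saline 36 and ethanol 60. *Slc25a16*, the other coenzyme A carrier gene, averaged 30.4 ± 1.57 CPM after saline and 29.5 ± 1.17 CPM after ethanol (-0.039 ± 0.066, log2 ± SE).

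*Slc25a39* (chromosome 11, 102402985 to 102407946), the mitochondrial glutathione importer, stood at 44.5, 51.9, 41.4, 44.4 and 50.9 CPM in the saline libraries. After ethanol *Slc25a39* stood at 45.7, 59.9, 59.8, 50.04 and 50.2 CPM, a difference of 0.19 ± 0.094 on the log2 scale (SE, FDR = 0.439), with ethanol 57 and ethanol 59 highest and all ethanol libraries above the saline median. Its homologue *Slc25a40* averaged 4.13 ± 0.5501 CPM after saline and 3.91 ± 0.296 CPM after ethanol (-0.079 ± 0.12). *Slc25a32*, a carrier gene of FAD and folate, stood at 9.01, 9.77, 13.2, 11.3 and 10.6 CPM in the saline libraries. After ethanol *Slc25a32* stood at 10.1, 8.11, 7.15, 11.2 and 8.82 CPM (-0.25 ± 0.13, SE, FDR = 0.459), with saline 36 highest and the same pair of ethanol libraries lowest. The NAD carrier gene *Slc25a51* averaged 98.8 ± 6.02 CPM after saline and 94.4 ± 4.37 CPM after ethanol (-0.066 ± 0.069), the S-adenosylmethionine carrier gene *Slc25a26* averaged 22.96 ± 1.93 CPM after saline and 24.1 ± 1.77 CPM after ethanol (0.068 ± 0.081) and the peroxisomal carrier gene *Slc25a17* averaged 17.1 ± 1.22 CPM after saline and 15.99 ± 1.44 CPM after ethanol (-0.10 ± 0.084).

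With all libraries in the fit, the iron importers did not differ between groups beyond their error. *Slc25a28* (chromosome 19, 43663801 to 43674881), mitoferrin 2 of most tissues, stood at 45.6, 45.4, 60.6, 39.9 and 46.02 CPM in the saline libraries. After ethanol *Slc25a28* stood at 51.9, 36.5, 48.1, 41.8 and 51.2 CPM (-0.049 ± 0.12, SE, FDR = 0.903). *Slc25a37* (chromosome 14, 69241848 to 69285112), mitoferrin 1, which serves red cell precursors, stood at 13.4, 13.3, 17.4, 13.8 and 13.1 CPM in the saline libraries. After ethanol *Slc25a37* stood at 14.1, 14.98, 16.5, 14.7 and 14.3 CPM (0.072 ± 0.093, SE, FDR = 0.7895). Saline 36 was the highest library of both, and of *Alas2*, whose part in these values was not tested. Every ethanol library of *Slc25a37* was above every saline library other than saline 36. Without saline 36 the log2 fold change was 0.047 for *Slc25a28* and 0.15 for *Slc25a37*. Per length, the *Slc25a28* level was 5.37 ± 0.408 times that of *Slc25a37* after saline and 4.96 ± 0.839 times after ethanol (SD, n = 5 each).

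The pyrimidine nucleotide carriers, which supply the matrix with the precursors of mitochondrial DNA and RNA, included the lowest fold change of the family. *Slc25a33* (chromosome 4, 149744036 to 149774277), a gene described in cultured cells as induced by insulin and IGF1, stood at 33.1, 32.4, 116, 34.6 and 36.3 CPM in the saline libraries. After ethanol *Slc25a33* stood at 21.96, 25.8, 23.1, 23.3 and 20.97 CPM. Saline 36 held more than any other library, and the other saline libraries were still all above the ethanol ones, with the nearest pair being saline 34 at 32.4 and ethanol 57 at 25.8 CPM. The log2 fold change was -1.13 ± 0.38 (SE, 95% interval from -2.00 to -0.27, edgeR FDR = 0.341, DESeq2 adjusted p = 0.133). Without saline 36 it was -0.57 (FDR = 0.05804), and without ethanol 60 as well -0.58 (FDR = 0.218). Over all alternatives the adjusted p ran from 0.058 to 0.68. An antisense gene overlaps 14.9% of its exon bases, and reads of the pair cannot be told apart without a stated strand setting. *Slc25a36* (chromosome 9, 97074961 to 97111157) stood at 25.8, 21.2, 20.3, 27.3 and 21.7 CPM in the saline libraries. After ethanol *Slc25a36* stood at 21.9, 15.3, 21.7, 23.1 and 20.1 CPM (-0.19 ± 0.12, SE, FDR = 0.522), with ethanol 57 lowest and the other 4 ethanol libraries near or within the saline range.

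The promoter windows of this pair are shown because *Slc25a33* was the carrier gene with the lowest fold change and *Slc25a36* carries the same class of substrates. Capitals mark the E-box CACGTG, the letters bound by CLOCK and BMAL1 among other factors, and the cAMP response element TGACGTCA. The E-box occurs in 7.15% of all windows and in 8 of the 46 carrier windows (17.4%), those of 7 genes. The GC box GGGCGG, bound by SP1 and left in lower case, occurs in 35.7% of all windows and in 38 of 46 carrier windows (82.6%), while TCAAGGTCA, bound by oestrogen-related receptors, and the 10-letter NRF1 motif were found in 0 of 46. All were searched on both strands. Windows of 1 gene can overlap, and no match says only that these letters are not in these windows.
Slc25a33 window, chr4:149774218-149774517, minus strand: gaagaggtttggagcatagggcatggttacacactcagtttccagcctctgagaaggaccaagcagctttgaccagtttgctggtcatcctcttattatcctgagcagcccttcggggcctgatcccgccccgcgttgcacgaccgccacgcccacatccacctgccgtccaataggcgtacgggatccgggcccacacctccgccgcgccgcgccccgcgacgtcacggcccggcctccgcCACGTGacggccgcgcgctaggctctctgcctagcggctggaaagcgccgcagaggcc
Slc25a36 window, chr9:97110992-97111291, minus strand: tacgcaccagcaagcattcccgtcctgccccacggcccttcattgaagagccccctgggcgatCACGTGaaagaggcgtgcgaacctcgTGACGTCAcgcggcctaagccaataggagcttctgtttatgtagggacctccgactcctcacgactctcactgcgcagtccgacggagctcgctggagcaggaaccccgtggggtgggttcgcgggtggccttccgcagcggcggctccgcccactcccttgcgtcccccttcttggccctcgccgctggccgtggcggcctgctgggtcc

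Of the carriers that resemble the uncoupling proteins, *Slc25a27* and *Slc25a30* were highest in saline 36, and *Slc25a14* in ethanol 57 and ethanol 59. *Slc25a30* stood at 9.29, 6.57, 21.5, 16.4 and 9.61 CPM in the saline libraries. After ethanol *Slc25a30* stood at 9.53, 10.4, 9.38, 10.2 and 10.6 CPM, with saline 36 and saline 38 above all other libraries (-0.34 ± 0.28, SE, FDR = 0.649, and -0.068 without saline 36). *Slc25a27* averaged 8.43 ± 2.25 CPM after saline and 7.29 ± 0.637 CPM after ethanol (-0.21 ± 0.15, and -0.035 without saline 36), and *Slc25a14* averaged 1.48 ± 0.337 CPM after saline and 1.601 ± 0.444 CPM after ethanol (0.12 ± 0.22). The uncoupling protein genes proper, which belong to the family under other symbols, did not differ beyond their error: *Ucp3* of muscle was at 365 ± 104 and 374 ± 66.5 CPM in saline and ethanol (0.033 ± 0.18, log2 ± SE, FDR = 0.958) and *Ucp2* at 37.5 ± 10.5 and 36.4 ± 5.82 CPM (-0.045 ± 0.17, FDR = 0.938).

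Members without a settled substrate included an abundant one. *Slc25a34* (chromosome 4, 141618824 to 141623821) stood at 107, 109, 109.8, 102 and 93.1 CPM in the saline libraries. After ethanol *Slc25a34* stood at 101, 74.3, 85.4, 105 and 81.4 CPM. The ethanol libraries fell into a higher pair, 51 and 60, within the saline range, and 57, 59 and 62 below every saline library, and the log2 fold change was -0.22 ± 0.10 (SE, FDR = 0.393), or -0.13 without ethanol 57 and ethanol 59. *Slc25a35* stood at 2.37, 3.23, 1.59, 2.21 and 2.37 CPM in the saline libraries. After ethanol *Slc25a35* stood at 1.94, 3.55, 3.64, 3.45 and 2.72 CPM (0.37 ± 0.21, SE, FDR = 0.477, and 0.25 without saline 36), but 31.3% of its exon bases lie in *Rangrf* on the other strand, whose own row averaged 39.4 CPM after saline and 37.8 after ethanol. *Slc25a45* stood at 1.03, 0.848, 1.33, 0.889 and 1.03 CPM in the saline libraries. After ethanol *Slc25a45* stood at 1.43, 1.54, 0.860, 1.37 and 1.45 CPM (0.37 ± 0.20, SE, FDR = 0.462), with ethanol 59 apart from the other ethanol libraries. *Slc25a46*, an outer membrane member that shapes mitochondria, averaged 67.98 ± 2.89 CPM after saline and 66.1 ± 3.45 CPM after ethanol (-0.040 ± 0.065), *Slc25a47* averaged 2.61 ± 0.392 CPM after saline and 2.61 ± 0.342 CPM after ethanol (0.0068 ± 0.14) and *Slc25a53* averaged 0.471 ± 0.118 CPM after saline and 0.542 ± 0.1803 CPM after ethanol on 9 to 23 counts (0.20 ± 0.28). Of the 7 genes with too few counts to test, *Slc25a43*, *Slc25a48* and *Slc25a54* fall here, with at most 3, 5 and 1 counts in a library.

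No library held all carriers high or all low. Ethanol 59 held the highest level of 10 of the 40 genes, among them *Slc25a4*, *Slc25a3*, *Slc25a11* and *Slc25a12*, and the lowest of 5. Saline 36 held the highest level of 8 and the lowest of 8, the high ones being *Slc25a27*, *Slc25a28*, *Slc25a30*, *Slc25a32*, *Slc25a33*, *Slc25a34*, *Slc25a37* and *Slc25a44*. The median over the 40 genes of log2 CPM, each centred on its own mean over the 10 libraries, lay between -0.065 and 0.067 in saline and between -0.052 and 0.061 in ethanol.

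**Figure D5:**
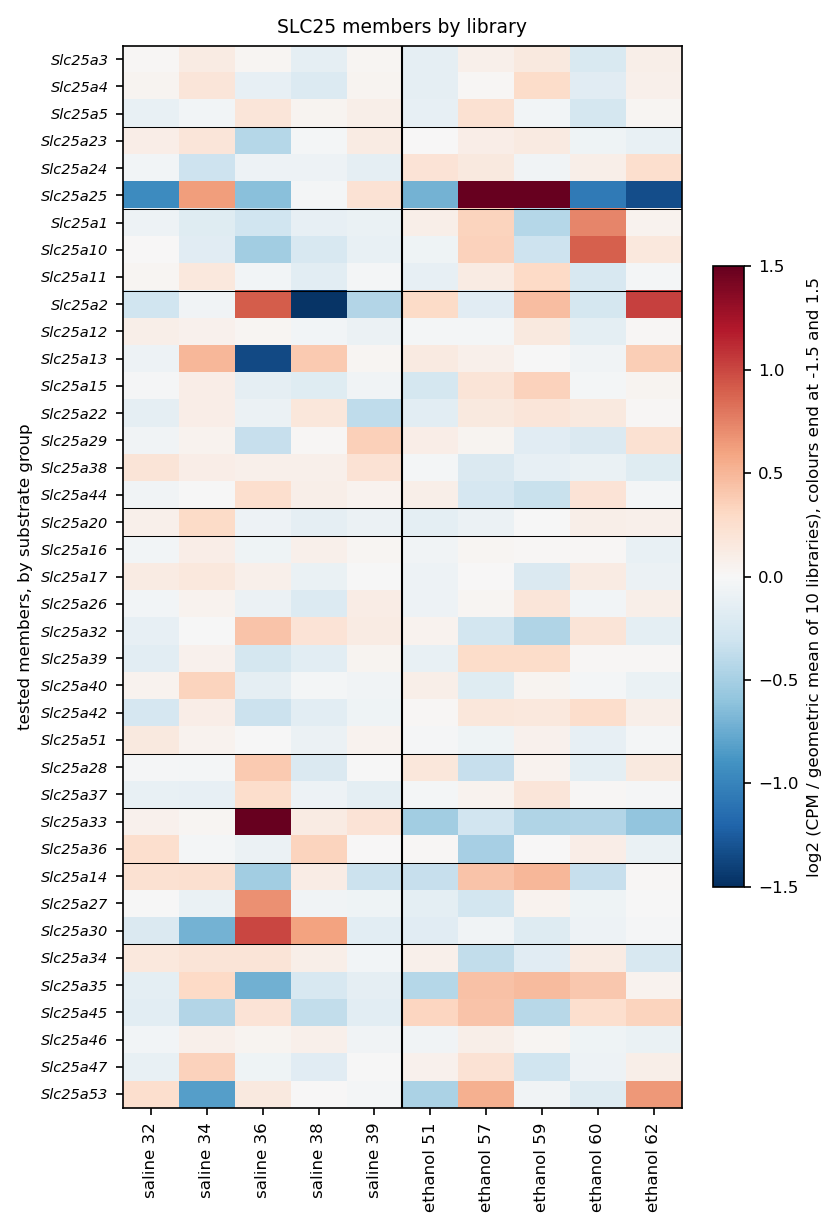
Log2 CPM of 39 tested SLC25 genes relative to their mean over the 10 libraries (colour, ending at -1.5 and 1.5), with libraries in columns, saline left of the line, and genes in rows by substrate group. Slc25a25 is high in ethanol 57 and 59, Slc25a33 in saline 36, and most rows show no split at the line.

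Other parts of the mitochondrial transport apparatus were likewise without a call at FDR 0.05. None of the 15 tested import genes (TOM and TIM subunits, by which carriers reach the inner membrane), 8 calcium uniporter and exchanger genes, 3 VDAC channels of the outer membrane, 2 pyruvate carrier subunits, 4 malate-aspartate shuttle enzymes or 10 regulators of mitochondrial genes (the PGC-1 genes among them) had an unadjusted p under 0.05, with list medians between -0.13 and 0.024 on the log2 scale. The smallest p of each belonged to *Timm10* (-0.22 ± 0.13, log2 ± SE), *Slc8b1* (0.088 ± 0.10), *Vdac3* (-0.070 ± 0.074), *Mpc1* (-0.15 ± 0.10), *Got1* (-0.25 ± 0.14) and *Ppargc1b* (0.52 ± 0.29). Among 9 sideroflexin and mitochondrial ABC transporter genes 2 were at an unadjusted p under 0.05, both higher in ethanol (6.22% of all tested genes were): *Sfxn3*, a sideroflexin, at 15.4 ± 0.9895 and 18.4 ± 0.869 CPM (0.26 ± 0.074, FDR = 0.287) and *Abcb8* at 40.3 ± 1.69 and 45.5 ± 1.604 CPM (0.18 ± 0.063, FDR = 0.336). *Mtch1* and *Mtch2*, distant family members of the outer membrane, had log2 fold changes of 0.065 ± 0.078 and -0.084 ± 0.086 (SE). Of the other cell types, the 7 endothelial markers summed to 358 to 486 CPM in saline and 395 to 526 CPM in ethanol and the 7 macrophage markers to 93.8 to 119.9 CPM in saline and 90.3 to 129.8 CPM in ethanol, each with 6 of 7 positive, and the 7 slow fibre markers to 1611 to 2141 CPM in saline and 1394 to 2022 CPM in ethanol, with 2 of 7 positive.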

How the data were processed

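Poly(A) RNA of 10 mouse calf muscles was sequenced from a single end with 100-base reads, per the labels' protocols. The authors deposited raw counts, whole numbers by gene symbol, 1 column a mouse. TopHat2, DESeq2 1.6.3 and mm10 are named in the submitters' processing notes with no role. Which counter, annotation and strand setting were used is not given in the sources used here. Overlapping genes can therefore share or lose reads. Of the 24421 rows, 27 hold a calendar date in place of a symbol and stayed in the totals and the fit as unnamed features.

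Genes were kept by edgeR's filterByExpr (minimum count 10, minimum total 15), leaving 13180, and scaled by TMM. Ethanol was compared with saline by edgeR 4.0.16 (quasi-likelihood F test, robust, no block), adjusted by Benjamini-Hochberg over all tested genes. Each SE was derived from the fold change and its F statistic. The script was tested on simulated counts. Gene positions and exon lengths (union of exons) are those of GENCODE M21 on GRCm38 and were found for all 47 carrier genes. Promoter windows come from RefSeq, with none shown from chromosome 18.

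The carrier genes and all lists were chosen with earlier results of these data known. Of the tested carrier genes 1 is counted in the totals but not reported here. Values by library are given for the others among the 12 with the smallest p, the 6 with the highest level per length and the related genes *Slc25a4* and *Slc25a5*, *Slc25a12* and *Slc25a13*, *Slc25a28* and *Slc25a37*, *Slc25a33* and *Slc25a36*, and *Slc25a23* to *Slc25a25*. *Slc25a30* and the genes of the promoter windows were singled out after their values were seen. Alternatives were DESeq2 1.42.0, limma-voom (limma 3.58.1), median-of-ratios size factors, total count scaling, no filter on low counts, a floor of 5 CPM on the mean, thinning to the smallest total, removal of the GC trend (lowess span 0.3), 1 surrogate variable (sva 3.50.0), and leaving out libraries. Within-group pairs of libraries differed by 13.1 to 92.8 in chi-square per degree of freedom, far above sampling noise.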

Additional observations from a re-analysis of the deposited data

Results flagged for a closer look

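Of 80 groups of 5 libraries (40 carrier genes in saline and in ethanol), 5 held a library set apart from the others by a gap above the 95% critical value of Dixon's test (0.71 of the range), where chance flags about 1 in 20 groups. Saline 36 accounted for 3 of them: *Slc25a33* at 116 CPM against 32.4 to 36.3 in the other saline libraries, *Slc25a27* at 12.4 against 7.197 to 7.68, and *Slc25a37* at 17.4 against 13.1 to 13.8. *Slc25a47* in saline 34 stood at 3.28 CPM against 2.299 to 2.57, on 120 counts. *Slc25a45* in ethanol 59 stood at 0.860 CPM against 1.37 to 1.54 in the other ethanol libraries, on 22 counts. The high pair of *Slc25a25*, ethanol 57 and ethanol 59, does not appear here because the test looks for a single library.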

How the results depend on the processing

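No paired analysis was possible because no animal number occurs in both groups. None of the 40 carrier genes passed FDR 0.05 in any of the 21 alternatives. Of all genes, 55 passed with DESeq2, 7 with 1 surrogate variable and 0 to 1 when 1 library was left out (1 without saline 34 and 1 without ethanol 57). At an unadjusted p under 0.05 there were 3 of 30 carrier genes with a mean of at least 5 CPM, where fewer genes were tested (12.6% of all genes), and 4 to 7 in the other fits (7.48 to 14.5% of all genes). Their median log2 fold change was -0.057 with 1 surrogate variable, where 25 of 40 were negative, and lay between -0.041 and 0.057 otherwise. Without saline 36 and ethanol 60, 7 of 40 carrier genes had an unadjusted p under 0.05, against 9.08% of all genes.

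Of 825 pairs of a gene and an alternative, 750 kept the sign of the log2 fold change, and 20 of 40 genes kept it throughout. Every reversal was of a gene whose 95% interval included 0. The sign turned with DESeq2 for *Slc25a47* -0.0023. It turned with limma-voom for *Slc25a29* 0.0046. The sign turned with median-of-ratios size factors for *Slc25a47* -0.0012. It turned with total count scaling for *Slc25a3* 0.020, *Slc25a12* 0.019, *Slc25a20* 0.0061 and *Slc25a29* 0.017. The sign turned without a low-count filter for *Slc25a23* -0.0012 and *Slc25a47* -0.0059. It turned after thinning for *Slc25a13* -0.14 and *Slc25a29* 0.0082. The sign turned with the GC trend removed for *Slc25a3* 0.029, *Slc25a11* -0.024, *Slc25a12* 0.0026, *Slc25a16* 0.011, *Slc25a23* -0.053, *Slc25a40* 0.0044, *Slc25a46* 0.034 and *Slc25a47* -0.065. It turned with 1 surrogate variable for *Slc25a4* -0.11, *Slc25a11* -0.12, *Slc25a13* -0.13, *Slc25a14* -0.21, *Slc25a15* -0.028, *Slc25a23* -0.14, *Slc25a25* -0.49, *Slc25a26* -0.010, *Slc25a28* 0.077, *Slc25a30* 0.12, *Slc25a44* 0.022 and *Slc25a47* -0.053. The sign turned without saline 36 and ethanol 60 for *Slc25a3* 0.029, *Slc25a5* 0.022, *Slc25a12* 0.010, *Slc25a13* -0.085, *Slc25a23* -0.069, *Slc25a28* 0.078 and *Slc25a47* -0.00027. It turned without ethanol 57 and ethanol 59 for *Slc25a4* -0.072, *Slc25a11* -0.13, *Slc25a14* -0.20, *Slc25a15* -0.025, *Slc25a23* -0.064, *Slc25a25* -0.97, *Slc25a28* 0.023, *Slc25a29* 0.026 and *Slc25a44* 0.014. With a library left out in turn, the genes whose sign turned spanned *Slc25a47* -0.054 to 0.11, *Slc25a3* -0.062 to 0.034, *Slc25a20* -0.069 to 0.046, *Slc25a40* -0.13 to 0.0070, *Slc25a4* -0.049 to 0.082, *Slc25a13* -0.12 to 0.25, *Slc25a23* -0.088 to 0.062, *Slc25a28* -0.10 to 0.047, *Slc25a11* -0.062 to 0.079, *Slc25a29* -0.10 to 0.081, *Slc25a14* -0.0066 to 0.21 and *Slc25a12* -0.064 to 0.014. The causes were not tested. Depth limits the tested genes with the fewest counts, *Slc25a2*, *Slc25a13* and *Slc25a53*.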

Other observations

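Ethanol 57 and ethanol 59, the libraries with the high *Slc25a25*, also held the highest ethanol values of *Slc25a39* (59.9 and 59.8 CPM), *Slc25a14* (2.01 and 2.11) and *Slc25a15* (15.9 and 17.6), and the lowest of *Slc25a44* (37.5 and 35.3) and *Slc25a32* (8.11 and 7.15). These genes were singled out after their values were seen.

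Some partner genes of the carriers had few counts in this table, and since the handling of reads over overlapping or duplicated genes is not given in the sources used here, these values are not read as expression levels. *Cpt1b*, the muscle form of the enzyme that makes acylcarnitines for *Slc25a20*, stood at 0.525 ± 0.161 CPM in saline, and its liver homologue *Cpt1a* at 15.4 ± 2.02 CPM (SD, n = 5 each). Its neighbour *Chkb* had 122 counts over the 10 libraries, and a separate row for the read-through transcript of the pair had 0. The globin rows *Hba-a1*, *Hba-a2*, *Hbb-bs* and *Hbb-bt* were at 0 in every library.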
